A study of Mus musculus with 9 samples.

Results

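Expression of 9 genes used as markers of pancreatic duct and other simple epithelium was examined in cultured mouse islets: the keratin genes Krt7, Krt8, Krt18 and Krt19, the adhesion gene Epcam, the mucin gene Muc1, the secreted protein gene Spp1, the transcription factor gene Sox9 and the chloride channel gene Cftr. The genes were chosen by name from the 56748 genes of the deposited count table, and all 9 were found. Primary islets of wt C57bl/6 mice were sequenced as total RNA in 9 libraries. Control islets (3 libraries) were untreated, inflamed islets (3 libraries) were cultured for 48 hours with IL-1beta, TNF-alfa and IL6, and particle islets (3 libraries) had these cytokines and also PD-G-MSNPs, which the study's title describes as mesoporous silica nanoparticles coated with polydopamine. The stated question was whether the nanoparticles protect islets under cytokines. No particle library without cytokines was analysed here, and no source used here gives the age or number of the animals or says whether replicates came from separate ones. The p-values rest on the spread among libraries, part of which may be technical.

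Keratins form the intermediate filaments of epithelial cells from obligate pairs of a type II chain (here KRT7 and KRT8) and a type I chain (here KRT18 and KRT19). KRT8 and KRT18 make up the filaments of simple epithelia and are also made by islet endocrine cells. KRT19 and KRT7 are used as markers of duct cells in the pancreas. SOX9 is the transcription factor of pancreatic progenitors and adult duct cells, CFTR is the apical channel through which duct cells drive bicarbonate secretion, osteopontin (the product of Spp1) is a secreted ligand of integrins and CD44 made by duct cells and by activated macrophages, MUC1 is a glycoprotein of the apical surface, and EPCAM is a cell adhesion molecule found on most epithelia. Isolated islets carry variable remnants of duct and acinar tissue.

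Krt8 (ENSMUSG00000049382) lies on chromosome 15 at 101905133 to 101912917 on the minus strand, and Krt18 (ENSMUSG00000023043) at 101936615 to 101940462 on the plus strand, in the coordinates of the deposited table (GRCm39). The 2 genes stand back to back, 23.7 kb apart. Krt8, Krt18 and Muc1 had the smallest adjusted p-values of the 9 genes in inflamed islets, and their upstream sequences are shown for this reason. The sequences are those of RefSeq on GRCm38.p6, 5′ to 3′ on the strand of the gene, in a table of 32851 promoters that held 7 of the 9 genes. For Krt8 and Krt18 the windows end before the most upstream annotated transcript start, which lay 140 and 36 bases upstream of the RefSeq start. Capitals mark motif matches.
Krt8 (chr15:102004483-102004592, minus strand): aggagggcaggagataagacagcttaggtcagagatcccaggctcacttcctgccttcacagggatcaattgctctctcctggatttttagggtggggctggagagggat
Krt18 (chr15:102027966-102028179, plus strand): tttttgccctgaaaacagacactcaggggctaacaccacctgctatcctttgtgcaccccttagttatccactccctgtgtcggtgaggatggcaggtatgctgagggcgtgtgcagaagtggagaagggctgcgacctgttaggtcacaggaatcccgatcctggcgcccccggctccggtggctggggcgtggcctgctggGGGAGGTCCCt
Muc1 (chr3:89228806-89229055, plus strand): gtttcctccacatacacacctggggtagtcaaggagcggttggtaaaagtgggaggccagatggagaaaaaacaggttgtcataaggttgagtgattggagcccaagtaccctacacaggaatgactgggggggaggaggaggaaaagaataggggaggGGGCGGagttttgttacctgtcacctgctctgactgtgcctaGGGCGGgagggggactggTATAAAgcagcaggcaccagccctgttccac
Each window was searched on both strands for 6 motifs: the TATA box (TATAAA), the GC box (GGGCGG), AP-1 (TGANTCA), STAT (TTCNNNGAA), the interferon response element (GAAA, any 2 bases, GAAA) and the NF-kB consensus. No match overlapped another. In Krt18, 1 match to the NF-kB consensus began 11 bases before the end of the window, and 6.12% of all promoter windows of that length held such a match. In Muc1, the TATA box began 31 bases before the end of the window and GC boxes began 91 and 49 bases before it. A TATA box occurred in 12.4% and a GC box in 32.7% of windows of the same length. None of the 6 motifs was found in the 110 bases of Krt8. These matches describe the letters in the windows only.

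The libraries held 17832949 to 55865759 counts. The deepest was inflamed replicate 3, ahead of the next at 32101145. Expression is given as CPM, the usual depth-scaled count, here relative to the TMM-scaled total of the tested genes, and a gene was called changed when edgeR's quasi-likelihood test gave a Benjamini-Hochberg adjusted p under 0.05 over all 17276 genes tested. Of the 9 genes, 8 passed the filter on low counts; Cftr did not. Endocrine markers, which define islets, were abundant: 20 genes summed to 374699 to 407120 CPM in control islets, 126544 to 233587 in inflamed islets and 91316 to 261077 in particle islets. The 18 acinar genes summed to 96.6, 2006 and 367 CPM in control replicates 1 to 3, to 43.3, 45.4 and 2874 CPM in inflamed replicates and to 35.0, 4168 and 266 CPM in particle replicates. Acinar RNA was thus high in control replicate 2, inflamed replicate 3 and particle replicate 2. In such bulk samples, more cells of a type and more RNA per cell cannot be told apart.

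Per base of gene length, the 9 genes spanned several orders of magnitude in control islets. Mean FPKM (fragments per kilobase of gene, as deposited) was 120 ± 5.41 for Krt18 (SD, n = 3 here and below), 87.3 ± 4.41 for Krt8, 77.01 ± 3.62 for Epcam, 61.6 ± 11.5 for Krt7 and 28.6 ± 17.4 for Spp1. It was 2.98 ± 1.88 for Krt19, 1.11 ± 0.714 for Muc1, 0.130 ± 0.0666 for Sox9 and 0.00669 ± 0.00701 for Cftr. Only Krt19 and Muc1 overlapped among neighbours in this order of control levels. Sox9 and Cftr, the genes most closely tied to duct cells, were each under 1 CPM in every library. In inflamed islets Krt18 (431 ± 132 FPKM) and Krt8 (401 ± 128 FPKM) overlapped at the top of the order, as did Spp1 (114 ± 55.0 FPKM) and Epcam (82.5 ± 14.5 FPKM) next, ahead of Krt7 (35.2 ± 12.3 FPKM). Lower down, Muc1 (9.91 ± 9.67 FPKM) overlapped Krt19 (8.41 ± 10.95 FPKM), and Sox9 (0.114 ± 0.0995 FPKM) overlapped Cftr (0.0491 ± 0.0368 FPKM). Particle islets had the same 5 genes on top, with Krt8 (276 ± 28.0 FPKM) and Krt18 (257 ± 30.6 FPKM) overlapping. The deposited length of Krt7, 7049 bases, is far above the 1958 bases of Krt8, which lowers the FPKM of Krt7 relative to its counts. By CPM, Krt7 was the highest of the 9 genes in control islets, at 431 ± 87.0, ahead of Krt18 at 171 ± 9.25. Krt19, the other keratin used as a duct marker, was at 5.43 ± 3.39 CPM in the same libraries. Which cells gave the Krt7 reads was not tested.

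**Figure D1:**
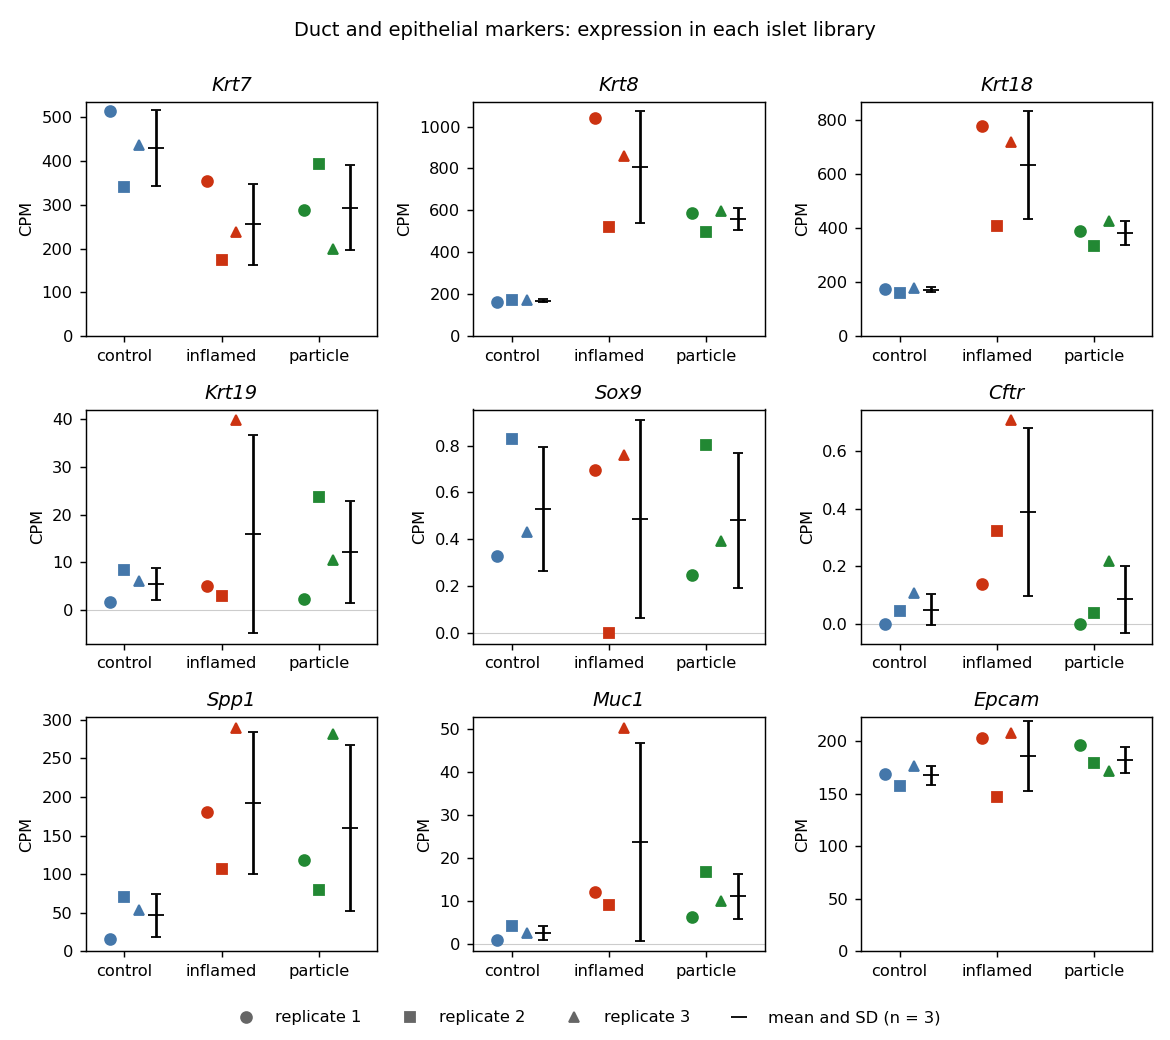
Level of each of the 9 genes in CPM (vertical axes, separate scales) in the 3 control, 3 inflamed and 3 particle libraries; symbols mark the replicate number and bars the mean and SD. Krt8, Krt18, Spp1 and Muc1 lie above every control library in all 3 inflamed libraries, while Epcam stays between 147 and 207 CPM in all 9. Cftr also lies above every control library in all 3 inflamed libraries, but on few counts and without a test.

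In inflamed islets 4 of the 8 tested genes, Krt8, Krt18, Spp1 and Muc1, were higher than in control islets and none was lower, in a comparison in which 20.7% of all genes tested were called higher and 19.0% lower (39.6% in all). At an unadjusted p under 0.05, 5 of the 8 passed beside 49.1% of all genes, the fifth being Krt7, and DESeq2 called Krt7 lower. The median log2 fold change was 1.73 over the 8 genes and 0.05 over all genes. The 4 called genes were also those whose inflamed libraries all lay above the control libraries, which held for 28.3% of genes tested.

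Krt8 had 162, 172 and 173 CPM in control replicates 1 to 3 and 1042, 518 and 859 CPM in inflamed replicates 1 to 3. Every inflamed library was far above the control libraries, which were close together. The rise was 4.77-fold (95% interval 3.16 to 7.19; log2 fold change 2.25, SE 0.270, edgeR adjusted p = 0.000187). Krt18, which codes for the type I partner of KRT8, had 173, 161 and 179 CPM in control islets and 779, 407 and 720 CPM in inflamed islets. It was lowest in inflamed replicate 2, as Krt8 was, and highest in inflamed replicate 1. The rise of Krt18 was 3.72-fold (95% interval 2.50 to 5.55; log2 fold change 1.90, SE 0.262, adjusted p = 0.000443). Both genes were called under all 22 alternative settings. Inflamed replicates 1 and 2 had acinar sums of 43.3 and 45.4 CPM and Krt8 at 1042 and 518 CPM. Control libraries had acinar sums of 96.6 to 2006 CPM and Krt8 between 162 and 173 CPM. The acinar gene Bhlha15 gave 71.1 CPM of the 96.6 in control replicate 1. It gave 5.67 and 2.02 CPM in inflamed replicates 1 and 2. Without Bhlha15, control replicate 1 would have a lower acinar sum than these inflamed libraries. The part of other cell types in these levels was not tested. Reads of the pseudogene Krt8-ps were 0.127% of those of Krt8, and the antisense gene Gm36026 held 0.0429%.

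Krt7, the other type II chain (chromosome 15, 101308924 to 101328194, plus strand), had 515, 341 and 436 CPM in control islets and 355, 173 and 238 CPM in inflamed islets. The groups overlapped, by inflamed replicate 1 and control replicate 2. The log2 fold change was -0.75 (95% interval -1.46 to -0.05, SE 0.319, adjusted p = 0.0810), and Krt7 was not called. It was called lower in 6 of the 22 alternatives, among them DESeq2 (adjusted p = 0.0279), the fit without inflamed replicate 1 (0.0368) and that without particle replicate 2 (0.0486), with a range of 0.0279 to 0.225. Krt19, the duct type I keratin (chromosome 11, 100031636 to 100039491, minus strand), had 1.78, 8.46 and 6.06 CPM in control islets and 5.11, 2.89 and 39.7 CPM in inflamed islets. A single library, inflamed replicate 3, set it apart. Its log2 fold change was 1.56 (95% interval -0.94 to 4.06, adjusted p = 0.287) with that library and -0.49 without it, and no setting called it.

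The make-up of the 4 keratins differed between control and inflamed libraries without overlap. Krt7 held 26.4%, 19.2% and 22.2% of their summed FPKM in control replicates 1 to 3 and 4.47%, 4.27% and 3.39% in inflamed replicates. The size of these shares, and of the ratios below, depends on the deposited gene lengths, 7049 bases for Krt7 and 1958 for Krt8. By CPM, Krt7 was above Krt8 in control islets (431 ± 87.0 and 169 ± 6.39) and below it in inflamed islets (255 ± 92.7 and 806 ± 266). The sum itself was 272 ± 11.1 FPKM in control islets and 875 ± 274 FPKM in inflamed islets. The Krt8 to Krt18 ratio was 0.687, 0.787 and 0.713 in control islets and 0.982, 0.933 and 0.876 in inflamed islets, so the groups did not overlap (exact permutation test, two-sided p = 0.1, the smallest that 3 against 3 libraries allow). Counting all 4 chains, the ratio of type II to type I keratin went the other way, from 1.28, 1.17 and 1.18 in control islets to 1.07, 1.01 and 0.904 in inflamed islets (exact p = 0.1). In particle islets the type II to type I ratio was 1.25, 1.26 and 1.10, which overlapped control islets (exact p = 0.9) and lay above inflamed islets (exact p = 0.1). The Krt8 to Krt18 ratio of particle islets was 1.11, 1.09 and 1.03, above all inflamed and all control libraries (exact p = 0.1 for each). With 3 ratios and the summed level tested in 3 comparisons, none of these p-values could pass 0.05 even unadjusted. Adjusted over the 12 tests, the smallest was 0.133.

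**Figure D2:**
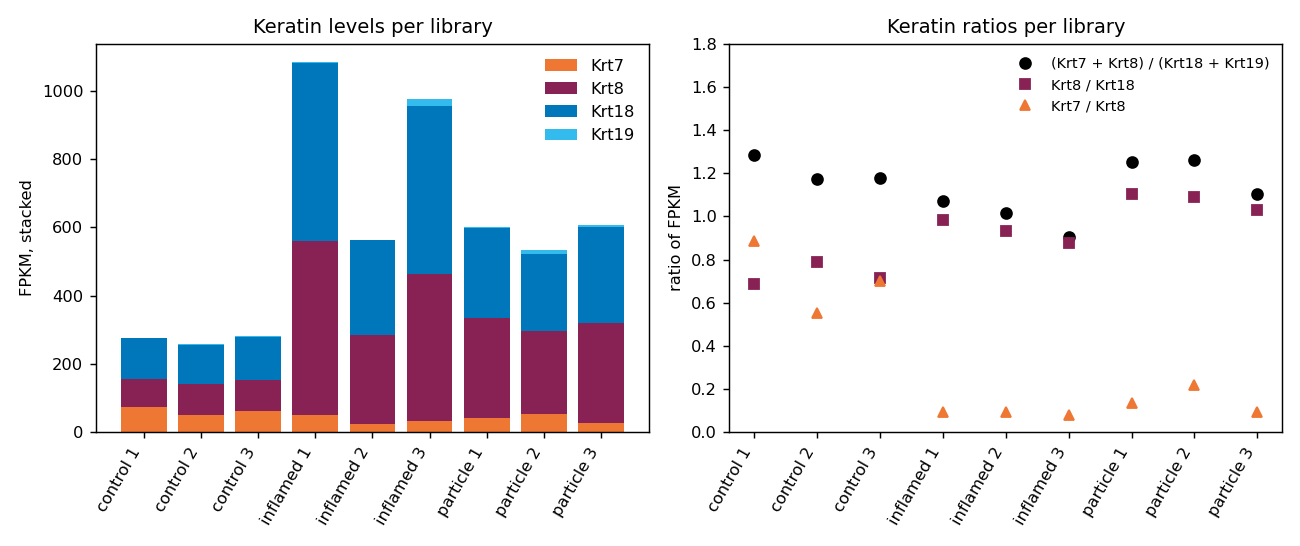
Left, FPKM of Krt7, Krt8, Krt18 and Krt19 stacked for each library; right, 3 ratios of FPKM for the same libraries. Krt7 over Krt8 drops from 0.550 to 0.884 in control libraries to 0.0768 to 0.0947 in inflamed ones, and Krt8 over Krt18 is highest in the particle libraries.

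Epcam varied little between libraries. The gene (chromosome 17, 87943407 to 87958557, plus strand) had 169, 158 and 176 CPM in control islets, 203, 147 and 207 CPM in inflamed islets and 196, 179 and 171 CPM in particle islets. Inflamed libraries lay on both sides of the control libraries, with a log2 fold change of 0.15 (95% interval -0.27 to 0.57, adjusted p = 0.555). The interval excludes a change of the size seen in Krt8. Cdh1, the gene of the epithelial adhesion protein E-cadherin, was likewise not called, with 323 ± 26.2 CPM in inflamed and 294 ± 43.7 CPM in control islets (adjusted p = 0.660).

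Muc1 (chromosome 3, 89136364 to 89140688, plus strand) had 0.950, 4.19 and 2.55 CPM in control islets and 12.04, 8.94 and 50.3 CPM in inflamed islets. All inflamed libraries were above all controls, and inflamed replicate 3 was far above the other two. The rise was 9.33-fold (95% interval 2.95 to 29.5; log2 fold change 3.22, SE 0.748, adjusted p = 0.00739). Without inflamed replicate 3 the log2 fold change was 1.98 (adjusted p = 0.0215), and without the count filter the call was lost (adjusted p = 0.0590; range over the alternatives 6.81e-06 to 0.0590). Spp1 (chromosome 5, 104582984 to 104588916, plus strand) had 15.8, 70.1 and 53.5 CPM in control islets and 181, 107 and 289.6 CPM in inflamed islets. Control replicate 1 was the lowest and inflamed replicate 3 the highest. The rise was 4.15-fold (95% interval 1.62 to 10.6; log2 fold change 2.05, SE 0.612, adjusted p = 0.0233). The call of Spp1 was lost without control replicate 1 (adjusted p = 0.0581), control replicate 3 (0.0792) or inflamed replicate 3 (0.0926, log2 fold change 1.58), and without the count filter (0.126), in a range of 0.0117 to 0.126 over the alternatives.

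Sox9 and Cftr were at the limit of detection. Sox9 (chromosome 11, 112673050 to 112678586, plus strand) had 8, 18 and 12 counts in control replicates 1 to 3, 15, 0 and 41 in inflamed replicates, and 5, 20 and 9 in particle replicates. In CPM these are 0.330, 0.828 and 0.431, then 0.697, 0 and 0.761, then 0.246, 0.804 and 0.392. With a floor set at 3 counts, the library with no count allows up to 0.138 CPM. The 95% Poisson interval of 41 counts is 0.546 to 1.03 CPM. Both cover counting error only. The groups overlapped, and the log2 fold change of -0.09 had a 95% interval of -2.48 to 2.29, too wide to show a difference. Inflamed replicates differed beyond counting error. The upper 95% Poisson limit, a different bound from the floor of 3 counts, was 0.169 CPM in replicate 2. The lower limit was 0.390 CPM in replicate 1. Cftr (chromosome 6, 18170686 to 18322767, plus strand) had 0, 1 and 3 counts in control islets, 3, 7 and 38 in inflamed islets and 0, 1 and 5 in particle islets, 58 in all. Of the 48 counts in inflamed islets, 38 came from replicate 3, the deepest library, where they equal 0.706 CPM (95% Poisson interval 0.499 to 0.969). In CPM, Cftr was at 0 to 0.108 in control islets and at 0.139, 0.321 and 0.706 in inflamed islets. Control replicate 3 and inflamed replicate 1 each had 3 counts. By the floor of 3 counts, the 2 libraries with no Cftr count allow up to 0.124 CPM (control replicate 1) and 0.148 CPM (particle replicate 1).

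**Figure D3:**
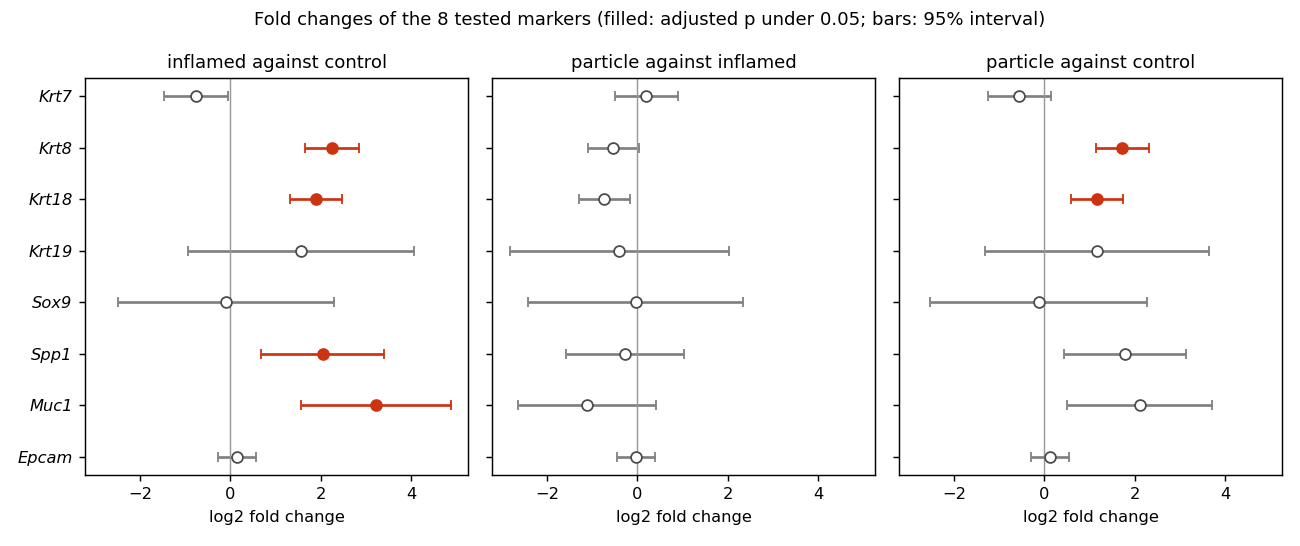
Log2 fold change (horizontal axes) of the 8 tested genes in the 3 comparisons, with 95% intervals; filled points passed an adjusted p of 0.05. Krt8 and Krt18 are filled in both comparisons with control islets, Spp1 and Muc1 in inflamed against control islets only, and no point is filled for particle against inflamed islets.

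Against the same control libraries, particle islets had 2 of the 8 genes called higher, Krt8 and Krt18, and none lower; 11.4% of all genes were called higher and 5.92% lower. At an unadjusted p under 0.05, 4 of the 8 passed beside 33.5% of all genes, none of them lower, and the median log2 fold change was 1.17 against 0.05 over all genes. Krt8 had 585, 498 and 596 CPM in particle replicates 1 to 3. All lay above the control libraries, with a rise of 3.31-fold (95% interval 2.21 to 4.96; log2 fold change 1.73, adjusted p = 0.00156). Krt18 had 389, 336 and 425 CPM and was 2.24-fold above control islets (95% interval 1.52 to 3.32; log2 fold change 1.17, adjusted p = 0.0127). The call of Krt18 was lost without control replicate 2 (adjusted p = 0.0535) or control replicate 3 (0.0576), in a range of 0.000189 to 0.0576. Spp1, with 118, 79.7 and 281 CPM, and Muc1, with 6.30, 16.8 and 10.03 CPM, lay above all control libraries, as 22.9% of genes did, while 20.6% lay below. Neither was called: the log2 fold change was 1.78 (adjusted p = 0.0683) for Spp1 and 2.11 (adjusted p = 0.0696) for Muc1. Spp1 was called in 3 of 22 alternatives: with library totals (adjusted p = 0.0454), with limma-voom (0.0470) and without particle replicate 2 (0.0369), in a range of 0.0369 to 0.274. Muc1 was called in 5: with library totals (0.0368), with DESeq2 (0.0103), in the fit of only the compared groups (0.0341), with a replicate block (0.0362) and without inflamed replicate 3 (0.0252), in a range of 0.0103 to 0.273. Krt7 (288, 393 and 199 CPM; log2 fold change -0.55, adjusted p = 0.249), Krt19 (2.46, 23.6 and 10.5 CPM; 1.17, adjusted p = 0.496), Sox9 (-0.13, adjusted p = 0.949) and Epcam (0.12, adjusted p = 0.694) overlapped control islets and were not called.

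Between particle and inflamed islets, none of the 8 genes was called and the groups overlapped in all 8, whereas 8.87% of all genes were higher and 6.82% lower without overlap. The background of this comparison was 0.0% called by edgeR, with 2603 genes (15.1%) at an unadjusted p under 0.05, 783 called by DESeq2 and 8 by limma-voom. Krt18 was the only one of the 8 at an unadjusted p under 0.05, with 383 ± 45.2 CPM in particle and 635 ± 200 CPM in inflamed islets (log2 fold change -0.73, 95% interval -1.29 to -0.17, adjusted p = 0.218). Krt8 had 560 ± 53.5 CPM in particle and 806 ± 266 CPM in inflamed islets (log2 fold change -0.53, 95% interval -1.09 to 0.04, adjusted p = 0.375). Particle libraries of both genes were close together, and every one was below the inflamed mean. For Muc1 the log2 fold change was -1.11 (95% interval -2.63 to 0.41), for Spp1 -0.27 (-1.58 to 1.04), for Krt7 0.20 (-0.50 to 0.90), for Krt19 -0.39 (-2.82 to 2.04) and for Epcam -0.03 (-0.44 to 0.39). Of these 5, the intervals of Epcam and Krt7 exclude a 2-fold difference in either direction, and the others do not. Leaving out particle replicate 3 raised the number of genes called in this comparison from 0 to 942, but called none of the 8.

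Krt19, Sox9 and Muc1 were each highest in control replicate 2, inflamed replicate 3 and particle replicate 2. These libraries had the highest sums of acinar genes and of 20 other duct markers. The other members did not share this full pattern. Krt7 was highest in particle replicate 2 but also in control replicate 1 and inflamed replicate 1, and lowest in control replicate 2. Spp1 was highest in control replicate 2 and inflamed replicate 3 but lowest in particle replicate 2. Cftr was highest in replicate 3 of every group. The lowest libraries of all 3 genes were control replicate 1, inflamed replicate 2 and particle replicate 1. Summed other duct markers were 709, 858 and 730 CPM in control islets, 1234, 827 and 3224 CPM in inflamed islets and 825, 1360 and 1127 CPM in particle islets. Clusterin (Clu) alone gave 2518 CPM of the 3224. It also gave 373 CPM of the 858 in control replicate 2 and 823 CPM of the 1360 in particle replicate 2. Without Clu, inflamed replicate 3 would keep the highest duct sum of its group, but control replicate 2 and particle replicate 2 would not. The acinar enzyme gene Cpa1 had 0, 114 and 9.36 CPM in control islets, 0.744, 0.917 and 125 CPM in inflamed islets and 0, 253 and 17.4 CPM in particle islets. Of the 18 acinar genes, 1 was lower (Bhlha15) and none higher in inflamed islets, beside 19.0% and 20.7% of all genes. The part of acinar or duct remnants in the levels of Krt19, Sox9 and Muc1 was not tested.

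**Figure D4:**
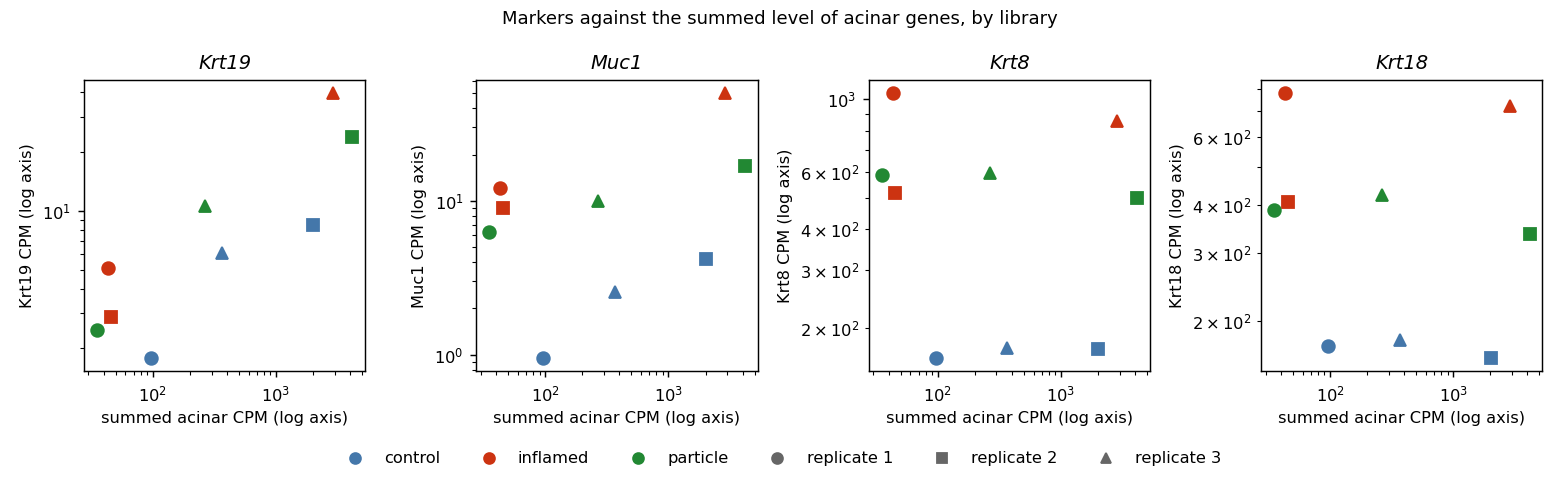
CPM of Krt19, Muc1, Krt8 and Krt18 (vertical log axes) against the summed CPM of 18 acinar genes (horizontal log axes), 1 point per library. Krt19 is highest within each group in the library with the most acinar RNA, whereas Krt8 stays between 162 and 173 CPM over control libraries whose acinar sums run from 96.6 to 2006 CPM.

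Of 20 other duct markers, 17 were tested; 3 were higher (Pdzk1ip1, Anxa3 and Clu) and 7 lower in inflamed islets, beside 20.7% and 19.0% of all genes, with a median log2 fold change of -0.34. Only 1 was higher when control replicate 1, control replicate 3 or inflamed replicate 3 was left out, and 5 were without inflamed replicate 2, while 6 or 7 were lower whichever library was left out. Tspan8, a tetraspanin gene, fell from 25.7 ± 7.44 to 3.92 ± 1.17 CPM in inflamed islets, and Dcdc2a fell from 28.1 ± 9.71 to 5.54 ± 3.33 CPM.

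Among 18 genes of duct chloride and bicarbonate transport, the pathway of CFTR, 11 were tested; 2 were higher and 2 lower in inflamed islets (median -0.27), and 1 to 3 higher and 0 to 3 lower when each library was left out in turn. Over all genes 20.7% were higher and 19.0% lower, so neither count stands out. The potassium channel gene Kcnn4 rose from 1.95 ± 0.353 to 6.12 ± 2.07 CPM. The anion exchanger gene Slc4a2 was called lower, in 14 of 22 alternatives as well (0.00870 to 0.210), but its span overlaps that of Fastk. Reads of the shared stretch cannot be assigned to either gene if strand was not used. The other mucins gave 2 higher and 1 lower of 5 tested (10 listed; median 1.36), or 1 to 2 in each direction with a library left out. Muc13 rose from 0.225 ± 0.170 to 2.33 ± 0.166 CPM, while Muc4, the most abundant of them, fell from 79.4 ± 26.1 to 35.2 ± 11.1 CPM. Muc5ac, at 0.0239 ± 0.0414 CPM in control and 0.626 ± 0.422 CPM in inflamed islets, passed the test (adjusted p = 0.0445) but was called in only 9 of 20 alternatives (0.0214 to 0.348).

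The other keratins were scarce. Of 18 listed, 6 were tested, 1 higher (Krt23) and 3 lower in inflamed islets (median -0.27), beside 20.7% and 19.0% of all genes. Leaving out a library gave 0 to 1 higher and 1 to 3 lower. Krt80, a type II keratin gene, fell from 8.41 ± 1.34 to 0.690 ± 0.736 CPM and Krt1 from 3.94 ± 1.40 to 0.389 ± 0.274 CPM (called in 19 of 22 alternatives). Krt10, at 6.88 ± 0.899 CPM in control and 3.81 ± 0.230 CPM in inflamed islets, passed the test (adjusted p = 0.0478) but was called in only 11 of 22 alternatives (0.0152 to 0.128). Krt8 and Krt18 together held 73.3% to 79.0% of the summed FPKM of the 4 marker keratins in control islets and 94.5% to 95.5% in inflamed islets. These shares also depend on the deposited gene lengths.

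Genes whose products bind or modify keratin filaments gave 6 higher and 2 lower of 12 in inflamed islets (median 0.57). Over all genes 20.7% were higher and 19.0% lower. Sfn, which codes for the keratin-binding 14-3-3 sigma protein, had 2.39, 3.59 and 2.73 CPM in control islets, 74.3, 36.4 and 83.4 CPM in inflamed islets and 65.1, 57.3 and 73.3 CPM in particle islets. Its control libraries were far below all treated libraries (log2 fold change 4.48 with SE 0.334 and adjusted p = 7.11e-06 in inflamed islets, 4.49 in particle islets). Eppk1, the gene of the cytolinker epiplakin, had 1.94, 1.66 and 3.19 CPM in control islets, 43.8, 49.6 and 42.5 CPM in inflamed islets and 46.8, 17.3 and 56.7 CPM in particle islets. Particle replicate 2 was the lowest treated library. Trim21, which codes for an antibody-binding ubiquitin ligase, rose from 6.10 ± 0.517 to 31.9 ± 2.34 CPM. Particle islets had 3 of the 12 higher (Sfn, Trim21 and Eppk1) and 1 lower, beside 11.4% and 5.92% of all genes.

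Of 29 tested epithelial adhesion, junction and splicing genes, 7 were higher, 6 lower and 16 not called in inflamed islets (median 0.13), shares near the 20.7% and 19.0% of all genes. Elf3, the gene of an epithelial transcription factor, had 26.9, 34.3 and 53.8 CPM in control islets, 523, 339.9 and 358 CPM in inflamed islets and 245, 151 and 286 CPM in particle islets. Every treated library was above every control library (log2 fold change 3.41, SE 0.345, adjusted p = 5.82e-05 in inflamed islets). F11r, which codes for junctional adhesion molecule A, rose from 48.8 ± 1.504 to 167 ± 11.4 CPM. Particle islets had 6 of the 29 higher (4 to 8 with a library left out) and 1 lower (Jup, 0 to 5). Over all genes 11.4% were higher and 5.92% lower there.

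Receptors and partners of osteopontin gave 8 higher and 1 lower (Itga4) of 12 tested in inflamed islets (13 listed, median 1.73). Over all genes 20.7% were higher and 19.0% lower. When single libraries were left out, 6 to 9 receptors and partners were higher. Itgav, the integrin alpha V gene, had 50.7, 50.9 and 47.0 CPM in control islets, 311, 208 and 174 CPM in inflamed islets and 151, 84.7 and 234 CPM in particle islets. No treated library reached down to the control level. Cd44 rose from 21.9 ± 8.77 to 75.5 ± 10.03 CPM in inflamed islets (log2 fold change 1.79, adjusted p = 0.00284). It was 39.2 ± 15.3 CPM in particle islets and overlapped control islets there (adjusted p = 0.116). Mmp3, the stromelysin gene, was at 0 to 0.0920 CPM in control islets and at 154, 35.8 and 221 CPM in inflamed islets. Tgm2 rose from 11.02 ± 2.68 to 96.8 ± 27.4 CPM, but its reads may be shared with the overlapping gene Rprd1b. Particle islets had 4 of the 12 higher (2 to 5 with a library left out) and none lower, beside 11.4% and 5.92% of all genes.

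Macrophage markers rose between control and inflamed islets, as Spp1 did. Of 17 tested, 15 were higher and 1 lower (Cx3cr1), also without inflamed replicate 3, beside 20.7% and 19.0% of all genes. In particle against control islets 6 were higher and 1 lower (C1qa), beside 11.4% and 5.92% of all genes. In particle against inflamed islets the log2 fold change of Spp1 was -0.27. The median of the 17 macrophage markers was -1.44 there, with none called. Their summed level was 356 to 456 CPM in control islets, 1421 to 1624 CPM in inflamed islets and 479 to 803 CPM in particle islets, and none was at 0 in a whole group. Inflamed replicate 3 and particle replicate 3 had both the highest macrophage sum and the highest Spp1 of their groups, but control replicate 1, with the highest macrophage sum of control islets, had the lowest Spp1. The lysosomal gene Cd68 rose from 15.9 ± 3.80 to 219 ± 38.7 CPM and Adgre1, the gene of the macrophage surface marker F4/80, from 2.51 ± 1.02 to 12.5 ± 6.49 CPM. The part of macrophages in the level of Spp1 was not tested. Mesothelial cells also make Krt8, Krt18 and Krt19. Of 12 mesothelial markers 2 passed the count filter, and Msln was 55.5 ± 20.1 CPM in control and 26.1 ± 7.79 CPM in inflamed islets, called lower with overlapping groups (adjusted p = 0.0296; called in 18 of 22 alternatives, 0.00589 to 0.0933). The part of mesothelial cells in the keratin levels was not tested. Stellate and fibroblast markers summed to 96.3 to 342 CPM in control and 23.9 to 95.9 CPM in inflamed islets, with 1 of 14 tested higher and 3 lower (1 to 2 and 1 to 5 with a library left out), beside 20.7% and 19.0% of all genes.

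Genes of the Notch and YAP pathways, which act around SOX9 in duct development, gave 5 higher and 6 lower of 25 in inflamed islets (median 0.38), or 3 to 7 and 5 to 7 with a library left out. Both shares were near those over all genes, 20.7% higher and 19.0% lower. Notch2 rose from 1.67 ± 0.303 to 13.4 ± 1.59 CPM. The ligand genes Jag2, from 93.0 ± 5.17 to 10.9 ± 1.63 CPM, and Dll4, from 16.0 ± 6.16 to 0.849 ± 0.557 CPM, fell. In particle islets 1 of the 25 was higher (Notch2) and 3 were lower (Jag2, Notch1 and Notch3). With a library left out, 0 to 3 were higher and 0 to 6 lower. Over all genes 11.4% were higher and 5.92% lower in particle islets. Of the endocrine markers, 16 of 20 were lower and none higher in inflamed islets, and 5 of 20 were lower in particle islets (1 to 20 with a library left out). In particle against inflamed islets no gene of any of the 13 lists was called, since no gene was. Without particle replicate 3, 9 macrophage markers and 3 osteopontin partners were lower and 8 endocrine markers higher, and at most 2 genes of any other list were called in 1 direction.

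Genes whose levels followed 4 of the markers most closely were listed by Pearson's r of log2(CPM + 0.5) over the 9 libraries, which share their groups, as a description. Krt19 was closest to Tff2 (r = 0.97), a trefoil factor gene that is on the list of other duct markers, followed by Tead2 (0.96), Reg3g (0.95), Ctse (0.95) and Spink1 (0.94). Tff2 had 0, 2.21 and 0.538 CPM in control islets, 0.186, 0.321 and 43.8 CPM in inflamed islets and 0, 25.5 and 3.66 CPM in particle islets, highest in the same libraries as Krt19. Spp1 was closest to the fibrinogen genes Fgg (0.97) and Fgb (0.96), then Cyp27b1, Plod2 and Ptpn12 (0.95 each). Epcam was closest to Ebp and Heatr9 (0.95 each), Cidea, Prap1 and Steap3 (0.92 each). For Sox9, at under 1 CPM, the list (Ybey, Igfbp3, Scara3, Mfap3l and Serpinf1, 0.93 to 0.94) rests on few counts.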

How the data were processed

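Total RNA of 9 islet libraries was compared in 3 groups of 3, with groups and replicate numbers from the sample titles. The deposited counts are whole reads per gene, not normalized, and the deposited FPKM values equal count over gene length and 1 constant per library (0.860 to 1.19 times its total). HTSeq, DESeq2 and the builds GRCm39 and mm39 are named per the submitters' processing notes; no source used here gives versions or strand use. The untreated columns do not name their group and were taken as the set remaining after the named ones.

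Counts were tested with edgeR 4.0.16 (R 4.3.3): filterByExpr with a smallest count of 10, TMM factors, robust quasi-likelihood fits of all 9 libraries, Benjamini-Hochberg adjustment over 17276 genes. SE is the log2 fold change over the square root of F, and 95% intervals use t quantiles at the fit's degrees of freedom. Keratin ratios were compared by exact permutation of log2 ratios of FPKM. The procedure was tested on simulated counts. Chi-square over degrees of freedom between replicates was 43.4 to 207, so no library counted as a duplicate.

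The 9 genes and 13 lists were chosen with earlier results of these data known. Named genes are the 9, up to 3 called genes with the smallest adjusted p from each list in inflamed against control islets, genes named in every case (Cdh1, Cd44, Adgre1, Msln and Cpa1) and the 5 protein-coding genes closest to Krt19, Sox9, Spp1 and Epcam; genes that spell out a small count, and the values of Clu and Tff2, were chosen after their values were seen. Some genes that this rule names are not reported here. Alternatives were RLE factors, library totals, TMM without the 20 most abundant genes, no or a stricter filter (1 CPM in 3 libraries), DESeq2 1.42.0, limma-voom (limma 3.58.1), non-robust dispersions, only the compared groups, a replicate block, limma-trend on FPKM (log2 with pseudocounts of 1 or 0.1), leaving out each library and, added after seeing the data, thinning to 17832949 counts.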

Additional observations from a re-analysis of the deposited data

How the results depend on the processing

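Genes called in inflamed against control islets numbered 6842 and stayed within 1.5 times of this in all 22 alternatives. Of the 8 tested markers, 4 were called higher there, but 2 without the count filter and 3 to 4 when each library was left out; 0 were called lower, but 1 (Krt7) without the count filter, with DESeq2, in the fit of only the compared groups and on log2(FPKM + 0.1), and 0 to 1 when each library was left out. Genes called in particle against inflamed islets numbered 0, but 1 with library totals, 221 without the filter, 783 with DESeq2, 8 with limma-voom, 10 on log2(FPKM + 1), 11 on log2(FPKM + 0.1), 3 after thinning and 0 to 942 without single libraries. In particle against control islets 2983 genes were called, and 1115 (without control replicate 3) to 4545 (without particle replicate 2) when each library was left out; control replicates 1 and 2 and particle replicates 1 and 3 also moved this count by over 1.5 times (1667, 1351, 1482 and 1465). Markers called higher there were 2, but 4 with library totals and 1 to 3 without single libraries. The log2 difference of the type II to type I ratio was -0.29 in inflamed and -0.01 in particle against control islets, and turned to 0.35 and 0.56 for Krt8 over Krt18 alone, which leaves out Krt7 and Krt19; leaving out libraries gave -0.044 to 0.052 in the second case. 

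Changes of sign were limited to values that no setting called. In inflamed against control islets, leaving out libraries gave -0.49 to 2.05 for Krt19, -0.65 to 0.46 for Sox9 and -5.68 to 3.14 for Cpa1. Sox9 turned to 0.0050 with library totals and 0.0040 with the replicate block, and Cpa1 (0.04) to -0.0121 with RLE factors, -0.0113 without the filter, -0.0235 with DESeq2, -0.0040 in the compared groups alone, -0.51 on log2(FPKM + 1) and -0.25 on log2(FPKM + 0.1). In particle against inflamed islets, leaving out libraries gave -0.065 to 0.52 for Krt7, -1.32 to 1.61 for Krt19, -0.62 to 0.48 for Sox9, -0.96 to 0.16 for Spp1, -1.56 to 0.077 for Muc1 and -0.17 to 0.066 for Epcam; library totals gave 0.082 for Sox9 and 0.080 for Epcam, limma-voom 0.59, log2(FPKM + 0.1) 0.078 and thinning 0.21 for Sox9, and log2(FPKM + 0.1) 0.0019 for Krt19. In particle against control islets Sox9 was 0.087 with library totals and -0.76 to 0.30 without single libraries. The cause of these changes was not tested.

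The labels do not say whether replicate numbers pair the samples. Deviations of same-numbered libraries correlated at -0.18 to 0.21 in 9 pairs, and those of differently numbered ones at -0.25 to 0.24. With 3 libraries per group, these values cannot show or exclude pairing. With the number as a block, 6116 genes were called in inflamed against control islets, and Muc1 was called in particle against control islets. Low counts limit Sox9 and Cftr, and the spread among libraries also limits Sox9. The 3 libraries per group bound the exact permutation tests of ratios at p = 0.1.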
